A study of Mus musculus with 8 samples.

Results

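The receptors described here deliver the second signal that a T cell needs beside its antigen receptor, and comprise 10 genes of the CD28 family, the tumour necrosis factor receptor (TNFR) family and the CD2 and CD226 adhesion receptors. All probe sets annotated to one of these genes alone were taken, which gave 16 of the 45101 probe sets on the array, for 10 of 18194 genes named there: 3 each for Icos and Tnfrsf9, 2 each for Cd28 and Tnfrsf1b, and 1 each for Cd27, Tnfrsf4, Tnfrsf18, Tnfrsf8, Cd2 and Cd226. RNA was measured on 8 Affymetrix arrays from spleen CD8+ T cells of wild-type C57BL/6 mice and of Elf4-/- mice, which lack a transcription factor of the ETS family and whose strain background is not stated in the labels. Cells of each genotype were left untreated, here called naive, or were cultured for 3.5 days on plates coated with antibody to CD3, and with antibody against CD28, in RPMI with fetal bovine serum and a T cell growth supplement, here called activated. Each of the 4 groups had 2 arrays. Age, sex and pooling of the mice are not given in the sources used here, nor whether the 2 arrays of a group came from separate animals or cultures. The p-values therefore describe the spread between these samples alone, and that spread may be technical. The activated cells had left the spleen and met both antibodies, so the comparison of states is one of fresh against cultured cells.

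Costimulatory receptors set how strongly and for how long a T cell answers antigen. CD28 is carried by resting T cells and binds CD80 and CD86 on antigen-presenting cells, and ICOS, its relative, is induced after activation and binds ICOS ligand. Of the TNFR family, CD27 is carried by resting T cells, while OX40 (Tnfrsf4), 4-1BB (Tnfrsf9) and GITR (Tnfrsf18) are known as receptors that are raised by stimulation and that signal through TRAF adaptors to NF-kB. TNFR2 (Tnfrsf1b) binds TNF, and CD30 (Tnfrsf8) binds CD153. CD2 binds CD48 in mice, and CD226 binds CD155 and CD112 on target cells.

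Several of the genes lie together in the mouse genome. In the GRCm38.p6 gene order, Tnfrsf4 and Tnfrsf18 were neighbours with 0 coding genes between them on chromosome 4, and so were Tnfrsf1b and Tnfrsf8. Cd28 and Icos were separated on chromosome 1 by 1 coding gene, Ctla4, which encodes their inhibitory relative. RefSeq promoter windows, 250 bases before to 50 bases after a gene's start, were used for 6 of the 10 genes. Tnfrsf9 had 2 windows. No window was at hand for Cd28, Icos and Cd2. Cd226 was left out of the search, so its motif content was not examined. The letters of 3 motifs were searched on both strands: the NF-kB consensus, the ETS motif GGAAGT and the AP-1 motif TGANTCA. They were held by 8.5%, 23.8% and 7.8% of all 32851 windows of the same length. The windows of Tnfrsf4 and Tnfrsf9 are shown because RNA of both rose on activation, and that of Tnfrsf8 because it held the same motifs as 1 Tnfrsf9 window while its probe set passed no test. Capitals mark the motif matches, and the sequences read 5′ to 3′ on the gene's strand.
Tnfrsf4, chr4:156013445-156013744, plus strand: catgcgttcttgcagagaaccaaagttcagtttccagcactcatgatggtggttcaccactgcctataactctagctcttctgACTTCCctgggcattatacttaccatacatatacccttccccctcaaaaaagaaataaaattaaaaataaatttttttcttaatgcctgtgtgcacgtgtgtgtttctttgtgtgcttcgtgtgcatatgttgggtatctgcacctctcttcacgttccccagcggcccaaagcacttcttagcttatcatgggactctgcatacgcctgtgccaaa
Tnfrsf9, upstream window, chr4:150919905-150920204, plus strand: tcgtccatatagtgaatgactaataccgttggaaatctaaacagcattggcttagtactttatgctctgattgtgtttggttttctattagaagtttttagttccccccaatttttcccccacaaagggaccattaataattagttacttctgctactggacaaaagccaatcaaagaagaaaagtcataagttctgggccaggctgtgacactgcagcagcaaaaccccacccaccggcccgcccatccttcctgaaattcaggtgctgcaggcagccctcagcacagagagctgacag
Tnfrsf9, downstream window, chr4:150927749-150928048, plus strand: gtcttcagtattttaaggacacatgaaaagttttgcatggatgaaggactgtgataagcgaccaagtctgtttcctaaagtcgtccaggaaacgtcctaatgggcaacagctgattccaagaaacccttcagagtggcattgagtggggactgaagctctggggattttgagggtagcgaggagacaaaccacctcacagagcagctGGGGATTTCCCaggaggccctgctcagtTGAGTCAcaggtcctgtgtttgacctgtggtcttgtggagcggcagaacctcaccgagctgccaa
Tnfrsf8, chr4:145315115-145315414, minus strand: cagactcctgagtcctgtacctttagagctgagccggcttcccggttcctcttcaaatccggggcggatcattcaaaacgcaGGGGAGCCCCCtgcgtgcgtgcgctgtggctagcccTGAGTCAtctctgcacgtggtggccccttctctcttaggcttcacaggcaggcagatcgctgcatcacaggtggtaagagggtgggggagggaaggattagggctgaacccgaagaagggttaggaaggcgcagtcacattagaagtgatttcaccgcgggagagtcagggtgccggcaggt

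The Tnfrsf4 window held 1 ETS match, on the strand opposite to the gene (ACTTCC). The downstream Tnfrsf9 window held 2 overlapping NF-kB matches, printed as 1 run of capitals, and 1 AP-1 match. The Tnfrsf8 window also held 2 overlapping NF-kB matches and 1 AP-1 match. The upstream Tnfrsf9 window and those of Cd27, Tnfrsf18 and Tnfrsf1b held none of these letters. A match is a description of the sequence and does not show that a factor binds there.

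Naive and activated arrays differed in other measures as well. Xist signal was 60.3 to 172 on the naive and 7703 to 10011 on the activated arrays, while the Y-linked Eif2s3y was at 2537 to 5146 and 2.93 to 44.0, which is the pattern of male cells on the naive and female cells on the activated arrays. The 3′ to 5′ signal ratio of Actb, which rises as RNA is degraded, ran from 1.96 to 2.50 on the naive and 5.90 to 11.1 on the activated arrays, and the 3′ probe set of the Lys spike-in control was at 989 to 1654 and 62726 to 78734. Sex, RNA integrity, spike-in signal and activation therefore cannot be told apart in the comparison of states. All 5 CD8 T cell markers examined (Cd8a, Cd8b1, Cd3e, Cd3d and Cd3g) were measured on every array, and all 5 fell on activation in both genotypes, with log2 differences between -1.40 and -2.74. Elf4 signal did not separate the genotypes: the brighter probe set, 1421338_at, read 116 and 199 in wild-type naive, 165 and 192 in knockout naive, 83.6 and 134 in wild-type activated and 76.2 and 80.6 in knockout activated cells (adjusted p 0.891 and 0.813 by limma for naive and activated cells). The position of the Elf4 probes relative to the deletion is not given, so this signal checks nothing about the genotype labels.

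Values below are intensities as the authors deposited them, on a linear scale on which each array's trimmed mean is 500, or differences in log2(intensity + 16). Differences were called at an adjusted p under 0.05 over all 27348 probe sets tested. All 16 receptor probe sets were tested, and 13 reached the array's median on all 8 arrays. The exceptions were Tnfrsf9 1421481_at, above it on 3 arrays, and Tnfrsf1b 1448951_at and Tnfrsf8 1421649_at, each above it on 5.

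**Figure D1:**
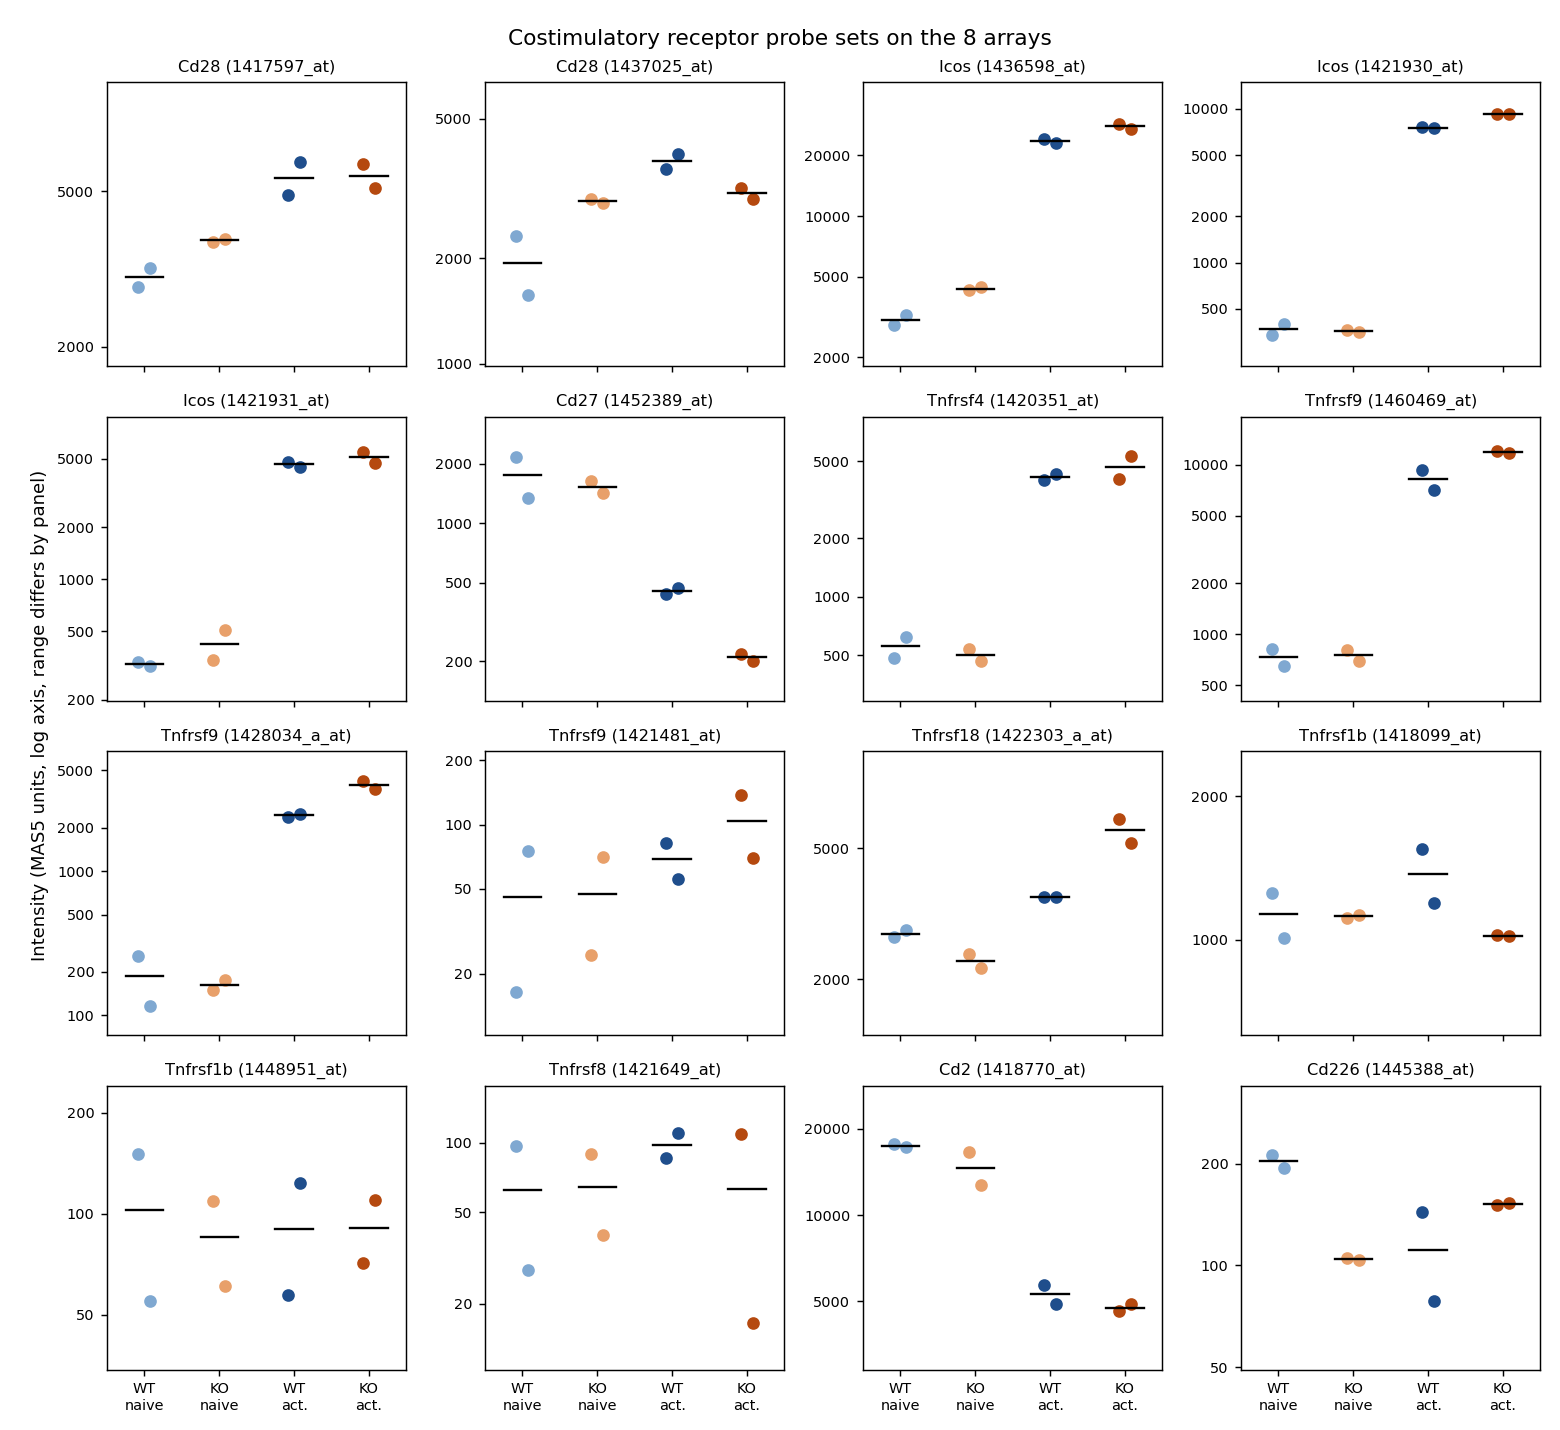
Intensity of the 16 receptor probe sets on the 8 arrays (points, deposited MAS5 units, log axis with a range of its own in each panel) with the mean of each group of 2 arrays (line), for wild-type (WT) and Elf4 knockout (KO) cells, naive or activated (act.). The 3 Icos probe sets, Tnfrsf4 and 2 of the 3 Tnfrsf9 probe sets stand higher on all activated arrays than on any naive array, and Cd27 and Cd2 stand lower.

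Activation was accompanied by higher RNA of Icos, Tnfrsf9, Tnfrsf4 and Cd28 and by lower RNA of Cd27 and Cd2 in wild-type cells. Taking each gene by its most changed probe set, Icos, Tnfrsf9 and Tnfrsf4 moved by the largest factors among the 10 genes. Icos rose by 7.68-fold to 20.4-fold over its 3 probe sets in wild-type cells. In knockout cells the same 6 genes were called in the same directions, and Tnfrsf18 was called higher as well. Tnfrsf1b, Tnfrsf8 and Cd226 passed the test in neither genotype. In each genotype 8 probe sets rose and 2 fell, and 9 were called in both genotypes with the same sign. Among all probe sets tested, 17.4% rose and 21.8% fell in wild-type cells, and 18.2% rose and 23.5% fell in knockout cells. The median difference of the 16 probe sets was 0.76 in wild-type and 0.75 in knockout cells, against -0.15 and -0.16 over all probe sets tested. In bulk RNA, fewer cells of a type and less RNA per cell cannot be told apart.

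Among the receptor probe sets, Icos 1421930_at had the largest rise in both genotypes. The brightest Icos probe set, 1436598_at, rose by less than Tnfrsf9 1460469_at and 1428034_a_at in both, so the order of the genes depended on the probe set. Icos 1421930_at read 338 and 399.7 in wild-type naive, 365 and 355 in knockout naive, 7571 and 7497 in wild-type activated and 9269.65 and 9262 in knockout activated cells. Naive and activated arrays were far apart, with group means of 369 ± 43.6 and 7534 ± 52.0 (SD, n = 2) in wild-type cells. The difference was 4.30 (95% confidence interval 3.97 to 4.63, adjusted p = 2.69e-08) in wild-type and 4.63 (4.29 to 4.96, adjusted p = 1.33e-08) in knockout cells, the 173rd and 114th largest rise of all 27348. Probe set 1436598_at read 2882 and 3238 in wild-type naive, 4305 and 4445 in knockout naive, 24063 and 22931 in wild-type activated and 28761 and 27079 in knockout activated cells. The order of its groups was wild-type naive, knockout naive, wild-type activated, knockout activated, with no overlap between neighbours. It rose by 2.94 (2.69 to 3.19, adjusted p = 3.94e-08) and 2.67 (2.42 to 2.92, adjusted p = 5.28e-08). The probe set 1421931_at read 316 to 507 on the naive and 4490.4 to 5463 on the activated arrays and rose by 3.78 and 3.57 (adjusted p = 2.09e-07 and 2.84e-07).

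Cd28, the receptor that the culture antibody itself binds, rose by less than Icos. Its probe set 1417597_at read 2849.7 and 3175 in wild-type naive, 3709 and 3778 in knockout naive, 4896 and 5932 in wild-type activated and 5864 and 5092 in knockout activated cells. All activated arrays were above all naive arrays, and the activated groups overlapped each other. It rose by 0.84 (0.52 to 1.16, adjusted p = 8.40e-04) in wild-type and by 0.54 (0.23 to 0.86, adjusted p = 0.0107) in knockout cells. The call in knockout cells was lost without knockout activated replicate 1 (0.44, adjusted p = 0.101) and without a trend in the prior variance (adjusted p = 0.0713). The second probe set, 1437025_at, read 2311 and 1573 in wild-type naive, 2964 and 2874 in knockout naive, 3593 and 3976 in wild-type activated and 3186 and 2952 in knockout activated cells. It rose by 0.98 (0.59 to 1.38, adjusted p = 0.00126) in wild-type cells, whereas in knockout cells the naive and activated arrays overlapped and the difference was 0.07 (-0.32 to 0.47, adjusted p = 0.785). The 2 Cd28 probe sets thus disagreed on the knockout cells.

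Tnfrsf4 (OX40) read 485 and 622 in wild-type naive, 534 and 464 in knockout naive, 3982 and 4307 in wild-type activated and 4042 and 5296 in knockout activated cells. The genotypes overlapped within each state, and every activated array was above every naive one. The rise was 2.88 (2.46 to 3.30, adjusted p = 9.78e-07) in wild-type and 3.18 (2.75 to 3.60, adjusted p = 4.68e-07) in knockout cells, or 7.49-fold and 9.35-fold by the group means. For Tnfrsf9 (4-1BB), probe set 1460469_at read 819 and 646 in wild-type naive, 809 and 693 in knockout naive, 9325 and 7103 in wild-type activated and 11968 and 11749.9 in knockout activated cells. It rose by 3.46 (3.06 to 3.85, adjusted p = 1.76e-07) and 3.96 (3.57 to 4.35, adjusted p = 7.17e-08), which is 11.2-fold and 15.8-fold by the means. The probe set 1428034_a_at, at 116 to 260.0 on the naive arrays, 2384 and 2489.75 on the wild-type activated and 4244 and 3702 on the knockout activated arrays, rose by 3.68 (3.03 to 4.33, adjusted p = 3.75e-06) and 4.48 (3.83 to 5.13, adjusted p = 8.70e-07). The dim remaining probe set, 1421481_at, lay between 16.5 and 138 on the 8 arrays and did not pass the test (0.62 and 0.96, adjusted p = 0.493 and 0.267). It reached the array's median on 0 naive and 3 activated arrays, so it entered the test only through activated cells. At this low signal its missing call says little about the other Tnfrsf9 probe sets.

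Tnfrsf18 (GITR) read 2690.0 and 2815 in wild-type naive, 2382 and 2167 in knockout naive, 3562 and 3544 in wild-type activated and 6137 and 5187 in knockout activated cells. The 4 groups did not overlap, and their order from low to high was knockout naive, wild-type naive, wild-type activated, knockout activated. The difference was 0.37 (0.06 to 0.67, adjusted p = 0.0570) in wild-type cells, which did not pass the threshold, and 1.31 (1.001 to 1.61, adjusted p = 2.47e-05) in knockout cells, which did. The wild-type difference passed after each array was centred on its median (0.56, adjusted p = 0.0234), with a stricter filter on dim probe sets (adjusted p = 0.0477) and without knockout naive replicate 1 or 2 (adjusted p = 0.0475 and 0.0473).

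Cd27, carried by resting T cells, read 2168 and 1342 in wild-type naive, 1639 and 1418 in knockout naive, 440.4 and 469 in wild-type activated and 218 and 202 in knockout activated cells. Both activated groups lay below all naive arrays, with the knockout lowest. It fell by 1.87 (-2.40 to -1.35, adjusted p = 1.01e-04) in wild-type and fell by 2.77 (-3.29 to -2.25, adjusted p = 5.37e-06) in knockout cells. Cd2, the receptor for CD48, read 17675 and 17258 in wild-type naive, 16556 and 12726 in knockout naive, 5690.2 and 4908 in wild-type activated and 4624 and 4903 in knockout activated cells. It fell by 1.72 (-2.04 to -1.41, adjusted p = 4.81e-06) and fell by 1.60 (-1.92 to -1.29, adjusted p = 7.14e-06), to less than the lowest naive value on all 4 activated arrays. These falls ran in the same direction as those of the CD8 and CD3 genes given above.

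Of the 10 genes, 3 had no called probe set. Tnfrsf1b 1418099_at read 1254 and 1009.6 in wild-type naive, 1113 and 1129.9 in knockout naive, 1553 and 1198 in wild-type activated and 1021 and 1019.75 in knockout activated cells, with differences of 0.27 (-0.14 to 0.69, adjusted p = 0.282) and -0.13 (-0.55 to 0.28, adjusted p = 0.609). Its other probe set ran from 54.8 to 150.4 on the 8 arrays. Tnfrsf8 read 96.6 and 28.0 in wild-type naive, 89.0 and 39.6 in knockout naive, 85.4 and 110.2 in wild-type activated and 109 and 16.6 in knockout activated cells. Replicates within 3 of the 4 groups lay far apart and all groups overlapped, and the interval in wild-type cells, -0.89 to 2.26, covers both a fall and a rise. Cd226 read 213 and 194 in wild-type naive, 105 and 104 in knockout naive, 143 and 78.5 in wild-type activated and 150.4 and 153 in knockout activated cells. Its difference was -0.84 (-1.63 to -0.05, adjusted p = 0.0887) in wild-type and 0.47 (-0.31 to 1.26, adjusted p = 0.321) in knockout cells.

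**Figure D2:**
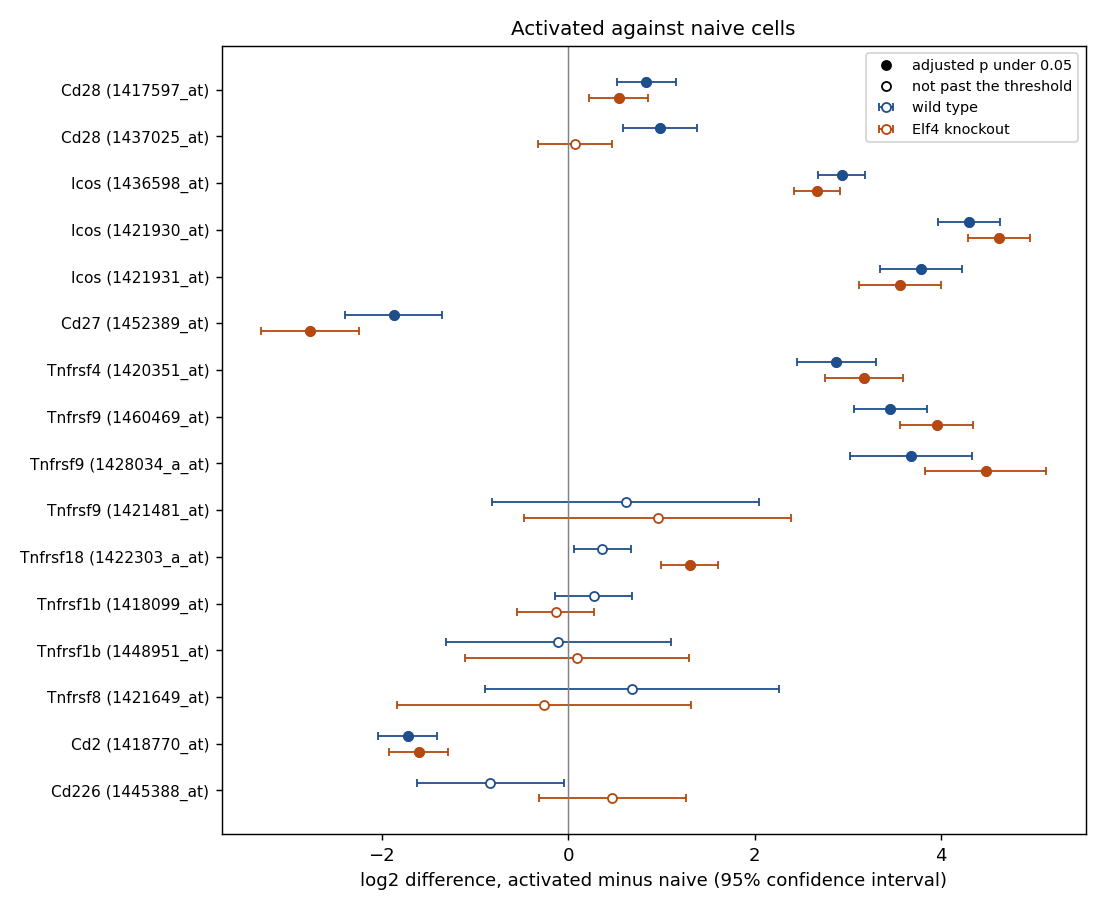
Difference in log2(intensity + 16) between activated and naive cells (x axis) for the 16 receptor probe sets (y axis), in wild-type (blue) and Elf4 knockout (orange) cells, with 95% confidence intervals. Filled points passed an adjusted p of 0.05, and the largest rises are 4.30 in wild-type and 4.63 in knockout cells, both for Icos 1421930_at.

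The 10 called probe sets of each genotype kept their sign under all alternatives run. The log2 ratio of 3′ to 5′ Actb signal, which differs mainly between the states, was added as a covariate in 1 alternative. In wild-type cells 5 of the 10 calls then remained, those of the 3 Icos probe sets and 2 of Tnfrsf9 (adjusted p from 0.0117 to 0.0360). In knockout cells 0 of 10 remained. Over all probe sets, this covariate left 484 calls in wild-type cells, against 10714 without it, and 0 in knockout cells, against 11395. The loss of all calls in knockout cells was therefore not particular to the receptors. Several lost receptor calls kept or exceeded their size. In wild-type cells Cd28 stood at 1.15 and 1.66 and Cd2 at -1.91. In knockout cells Icos 1436598_at and 1421931_at stood at 2.74 and 4.38 and Tnfrsf9 at 4.42 and 6.55. Those of Tnfrsf4 (1.79 and 1.42) and Cd27 (-1.11 and -1.55) were smaller, and so was that of Icos 1421930_at in knockout cells (4.32, against 4.63). Scaling mattered for the balance of all calls: after centring on the array medians, 55.2% of 9880 calls in wild-type cells were rises, against 44.4% of 10714 as first scaled, and the median over all probe sets moved from -0.15 to 0.03. The receptors then had 9 rises and 2 falls.

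Between genotypes in naive cells, no receptor probe set passed the test: 0 of 16 were called, against 0.563% of all probe sets tested, and 3 of 16 had an unadjusted p under 0.05, as had 12.1% of all probe sets tested. The smallest adjusted p was 0.0949, for Icos 1436598_at, which was higher in knockout cells on both arrays by 0.52 (0.27 to 0.77). Cd28 1437025_at was 0.61 (0.21 to 1.01, adjusted p = 0.204) and Cd226 -0.86 (-1.65 to -0.07, adjusted p = 0.367) in knockout against wild-type cells. The other probe sets lay between -0.27 and 0.35. The arrays of 7 probe sets did not overlap between genotypes, 4 with higher and 3 with lower knockout values, and 38.2% of all probe sets tested did not overlap. Without wild-type naive replicate 1, Cd28 1437025_at passed (0.89, adjusted p = 0.0415). Without wild-type naive replicate 2 it stood at 0.33. After centring on array medians, 72.7% of 121 calls over all probe sets were higher in the knockout, against 55.8% of 154, and the median of all probe sets moved from 0.00 to 0.10.

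The naive knockout arrays also differed in markers of other cells. The summed intensity of 9 measured granulocyte genes was 419 and 737 on the wild-type naive, 4669 and 19509.8 on the knockout naive and 231 to 402 on the activated arrays, and 4 of 8 tested genes rose in the naive knockout. Summed B cell genes stood at 5437 and 4385 on the wild-type naive arrays and at 4372 and 11564 on the knockout ones. Summed macrophage and monocyte genes stood at 2460.1 and 2948 on the wild-type naive and at 4001 and 6594 on the knockout naive arrays, with 0 of 8 tested called. Summed NK cell genes stood at 733 and 2768 on the wild-type naive and at 3227 and 5611 on the knockout naive arrays. Most of each sum came from Gzma, which activated CD8+ cells are also known to express and which was not called (1.63, adjusted p = 0.312). Of 3 tested NK cell genes 1 rose, Klra8 (2.60, adjusted p = 0.0493), while Ncr1, a defining NK marker, was under the median on all arrays. Knockout naive replicate 2 held the highest sum of each of these lists. Without it the differences were 0.49 for Icos 1436598_at, 0.63 for Cd28 1437025_at and -0.86 for Cd226. Genes of CD4+ and regulatory T cells, which carry GITR, OX40 and ICOS, summed to 1295 and 1114 on the wild-type naive arrays and to 2450.4 and 3186 on the knockout ones. Of 7 tested genes of that list 2 rose in the naive knockout, Ikzf2 (1.88, adjusted p = 0.00130) and Gpr83 (2.10, adjusted p = 0.0493). Cd4 itself was at 17.95 to 43.1 and under the median on each of the 8 arrays, and Foxp3, the defining factor of regulatory T cells, was at 14.8 to 98.7 and reached the median on 1 array. Their part in the receptor values was not tested.

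In activated cells, Cd27 was lower and Tnfrsf18 and 2 of the 3 Tnfrsf9 probe sets were higher on both knockout arrays than on both wild-type arrays, but no receptor probe set passed the test over all 27348. The count was 0 of 16, against 0.216% of all probe sets called. At an unadjusted p under 0.05 there were 4 of 16, and 10.5% of all probe sets. Cd27 stood at 454 ± 19.9 in wild-type and 209.96 ± 11.4 in knockout cells (SD, n = 2). This 2.16-fold difference was -1.06 on the log2 scale (-1.58 to -0.53, adjusted p = 0.119). Tnfrsf18 stood at 3553 ± 12.98 and 5662 ± 672 (SD, n = 2), a difference of 0.66 (0.36 to 0.97, adjusted p = 0.0964). For Tnfrsf9, 1460469_at was higher by 0.54 (0.15 to 0.93, adjusted p = 0.286) and 1428034_a_at by 0.70 (0.05 to 1.35, adjusted p = 0.434). Icos differed by 0.13 to 0.30 over its 3 probe sets, and Tnfrsf1b 1418099_at by -0.41 (-0.83 to 0.00, adjusted p = 0.477). The arrays of 10 probe sets did not overlap, 6 with higher and 4 with lower knockout values, where 47.0% of all probe sets tested did not overlap.

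These activated-cell differences depended on the fit. With only the 4 activated arrays in the fit, Cd27, Tnfrsf18 and Tnfrsf9 1428034_a_at passed (adjusted p = 0.0342, 0.0158 and 0.0133), where 734 probe sets were called in all, against 59 in the fit of all 8 arrays. With array weights, Cd27 and Tnfrsf18 passed (adjusted p = 0.0230 and 0.0236), where 438 were called in all. Some settings went the other way. Without a trend in the prior variance, the adjusted p was 0.332 for Cd27, 0.370 for Tnfrsf18 and 0.622 for Tnfrsf9 1428034_a_at. With the Actb ratio as a covariate, Cd27 shrank to -0.72 (adjusted p = 0.878). Tnfrsf18 then stood at 0.86 and Tnfrsf9 1428034_a_at at 1.27 (adjusted p = 0.730 and 0.828). With each activated array left out in turn, Cd27 stood at -1.01 to -1.11 and Tnfrsf18 at 0.54 to 0.79. Without wild-type naive replicate 2, which enters only the shared spread, Cd27 passed (adjusted p = 0.0456). Centring on the array medians left 31 calls over all probe sets, of which 64.5% were higher in the knockout, against 52.5% of 59. Genes of CD4+ and regulatory T cells summed to 16992 and 16022 on the wild-type activated arrays and to 19068 and 18174 on the knockout ones, mostly from Il2ra, which activated CD8+ cells are also known to carry, and 1 of 7 tested rose in the knockout, Ikzf2 (0.97, adjusted p = 0.0460). Summed granulocyte genes were at 263 and 402 on the wild-type activated arrays and at 234 and 231 on the knockout ones. Summed NK cell genes were at 809 and 1246 on the wild-type activated arrays and at 2103 and 2061 on the knockout ones, mostly from Gzma, which activated CD8+ cells are also known to express, with 0 of 3 tested called. The part of these cells in the receptor differences was not tested.

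**Figure D3:**
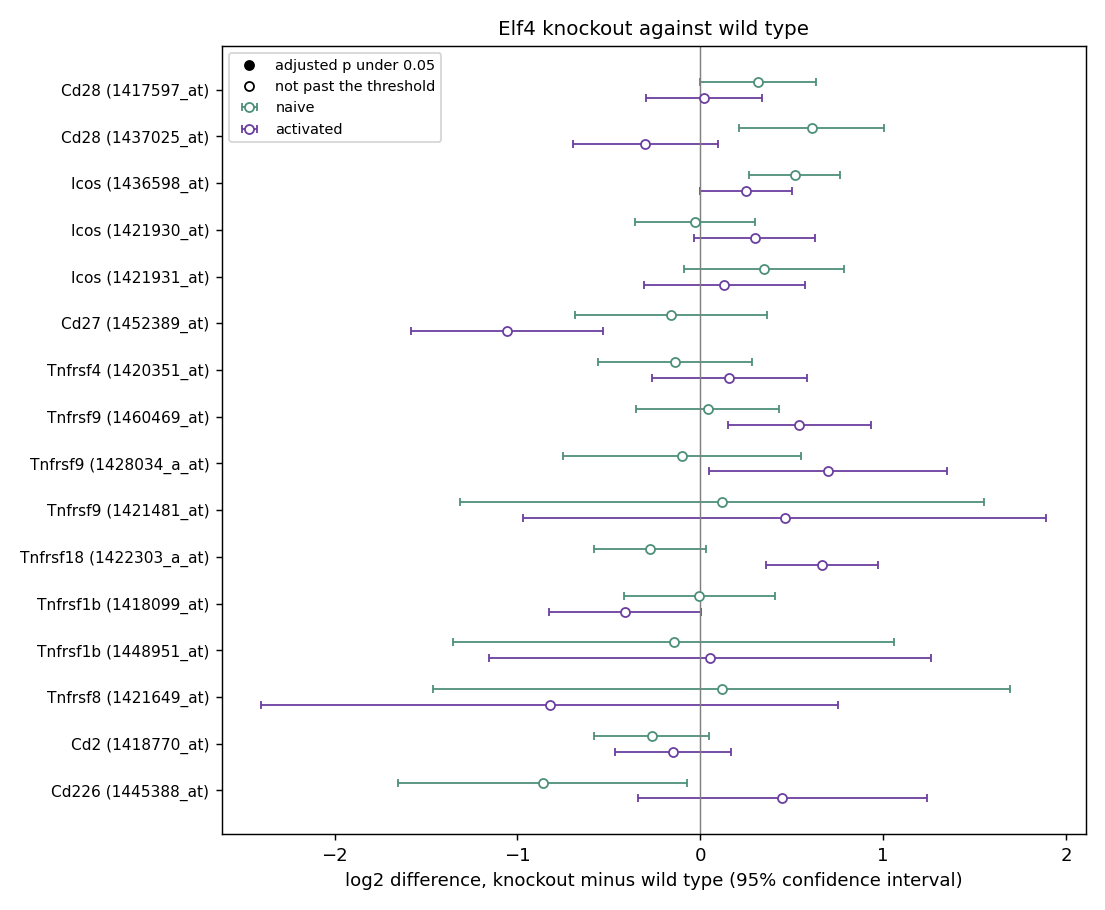
Difference in log2(intensity + 16) between Elf4 knockout and wild-type cells (x axis) for the 16 receptor probe sets (y axis), in naive (green) and activated (purple) cells, with 95% confidence intervals. All points are open because none passed an adjusted p of 0.05, and the lowest point in activated cells with an interval that leaves out 0 is Cd27 at -1.06.

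The response to activation did not differ between the genotypes at the threshold for any receptor (0 of 16), and 0.0585% of all probe sets passed that test of the difference. At an unadjusted p under 0.05 there were 4 of 16, and 9.74% of all probe sets. The smallest adjusted p among the receptors was 0.132, for Tnfrsf18, whose rise was larger in knockout cells by 0.94 (0.51 to 1.37). For Cd27, which fell in both, the difference was -0.90 (-1.64 to -0.16, adjusted p = 0.404). For Cd28 1437025_at the difference was -0.91 (-1.47 to -0.35, adjusted p = 0.251), and for Cd226 the difference was 1.31 (0.19 to 2.43, adjusted p = 0.427). For Tnfrsf9 it was 0.50 and 0.80 (adjusted p = 0.563 and 0.583). In Cd28 1437025_at, Tnfrsf18 and Cd226 the genotypes' arrays did not overlap in either state and lay in opposite order in naive and activated cells, which was so for 7.92% of all probe sets tested.

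The genes most alike to each receptor over the 8 arrays were found by the root mean square difference of centred log2 values, among 12813 other genes. Icos lay closest to Uhrf1bp1 (0.0995) and Carnmt1 (0.116), and Tnfrsf4 to Pgam1 (0.145), a glycolytic enzyme, and Cks2 (0.150), a cell cycle factor. Tnfrsf9 lay closest to Serpinb6b (0.139) and Stard4 (0.249), and Tnfrsf18 to Dusp19 (0.121) and Nae1 (0.127). Cd27 lay closest to Klrd1 (0.169), which encodes CD94, and to Zfp652 (0.174). Cd28 lay closest to 1810013L24Rik (0.0999) and Fbxo3 (0.102), Cd2 to Det1 (0.0683) and Anks3 (0.0924), and Tnfrsf1b to Dnajc9 (0.0648) and Hnrnpr (0.0837). Those of Tnfrsf8, Cdh23 and Rnf227, were farther away (0.261 and 0.271), and those of Cd226 were Gm19605 (0.176) and Csrnp1 (0.202). The 8 arrays share 2 states, so they are not 8 separate conditions and a small distance says nothing of shared control.

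Of 92 genes listed as ligands, family relatives, signalling genes or NF-kB and survival targets, 82 were measured. Each is represented by 1 probe set, the one with the highest mean. The counts of every list stand against the shares over all probe sets tested. In wild-type cells 17.4% of these rose and 21.8% fell, and in knockout cells 18.2% rose and 23.5% fell. Up to 4 called genes per list and comparison are named, so a gene given for 1 genotype may also have changed in the other. Of these lists only Tnfaip3, given below, was called in the test of the difference in response. Among 13 ligand genes, 5 rose and 4 fell in wild-type and 6 rose and 4 fell in knockout cells, with medians of 0.18 and 0.81 against -0.15 and -0.16 over all probe sets. Cd80, a CD28 ligand, rose by 4.51 and 4.01 (adjusted p = 3.42e-04 and 7.12e-04) and Cd86, the other one, fell by 2.33 in wild-type cells (adjusted p = 8.26e-05). In wild-type cells, 7 of 8 tested B cell genes and 5 of 8 tested macrophage and monocyte genes also fell. Their part in the fall of Cd86 was not tested. Lta, a TNF relative, rose by 3.82 and 4.61 (adjusted p = 4.89e-07 and 1.40e-07), and Ltb, its partner, fell (-2.90 and -3.07, adjusted p = 8.00e-08 and 5.17e-08). Cd70, the ligand of CD27, rose by 2.78 in knockout cells (adjusted p = 7.59e-04).

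Of 18 tested other CD28 and TNFR family receptors, 2 rose and 3 fell in wild-type and 2 rose and 5 fell in knockout cells, with medians of -0.36 and -0.15. Ctla4, the inhibitory receptor between Cd28 and Icos, rose by 4.61 and 5.32 (adjusted p = 9.05e-08 and 3.66e-08), and Pdcd1, which encodes PD-1, by 3.70 and 2.07 (adjusted p = 1.48e-06 and 8.62e-05). Tnfrsf25 fell (-1.94 and -2.23, adjusted p = 9.84e-05 and 3.15e-05), and Tnfrsf13c, the BAFF receptor of B cells, fell as well (-1.78 and -1.52, adjusted p = 0.00369 and 0.00840). In naive cells Pdcd1 was the 1 gene of the list called between genotypes, higher in the knockout by 1.56 (adjusted p = 0.0301). Of 8 measured B cell genes, 7 fell on activation in each genotype, beside which the fall of Tnfrsf13c stands, and their part in it was not tested. Of 10 SLAM and CD226 family receptors, 2 rose and 5 fell in wild-type and 2 rose and 3 fell in knockout cells, with medians of -1.56 and -0.80. Slamf6 fell (-2.90 and -4.69, adjusted p = 2.24e-06 and 8.73e-08), Cd96, which binds CD155 as CD226 does, fell too (-1.94 and -2.40, adjusted p = 1.14e-06 and 2.60e-07), and so did Cd84 (-2.09 and -2.37, adjusted p = 1.88e-05 and 6.77e-06). Slamf8 fell by 2.65 in wild-type (adjusted p = 0.0147) and Slamf1 rose by 2.53 in knockout cells (adjusted p = 2.50e-06).

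Of 23 TRAF, adaptor and kinase genes, 2 rose and 13 fell in wild-type and 2 rose and 12 fell in knockout cells, with medians of -0.61 and -0.70. Traf4 rose by 2.04 in wild-type cells (adjusted p = 7.43e-04). Traf5, an adaptor of CD27 and OX40, fell (-1.82 and -2.15, adjusted p = 2.29e-05 and 6.05e-06), Fyn, a kinase near the antigen receptor, fell (-1.80 and -1.86, adjusted p = 6.30e-06 and 4.52e-06), and Map3k14, which encodes the NF-kB-inducing kinase, fell in both (-1.68 each, adjusted p = 8.28e-04 and 7.87e-04). Prkcq, the protein kinase C isoform engaged downstream of CD28, fell by 2.14 in knockout cells (adjusted p = 5.02e-07) and was the 1 gene of the list called between genotypes in activated cells, lower in the knockout (-0.82, adjusted p = 0.0365). Of 14 NF-kB and survival genes, 6 rose and 4 fell in wild-type and 7 rose and 4 fell in knockout cells, with medians of -0.26 and 0.53. Ifng rose by 4.50 and 6.10 (adjusted p = 1.01e-06 and 1.35e-07), Il2 by 4.37 and 4.77 (adjusted p = 9.30e-06 and 4.53e-06), and Bcl2l1, which encodes the survival factor Bcl-xL, by 2.15 and 2.48 (adjusted p = 4.28e-05 and 1.38e-05). Nfkb2 rose by 1.88 in knockout cells (adjusted p = 2.05e-05).

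Tnfaip3, which encodes the NF-kB inhibitor A20, was called between the genotypes in naive cells and in the response to activation. In naive cells it was lower in the knockout (-1.88, adjusted p = 0.00637). It fell by 1.55 on activation in wild-type cells (adjusted p = 2.23e-04), and its response was higher in knockout cells by 2.19 (adjusted p = 0.0471), the 1 call of the lists in the test of the difference.

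**Figure D4:**
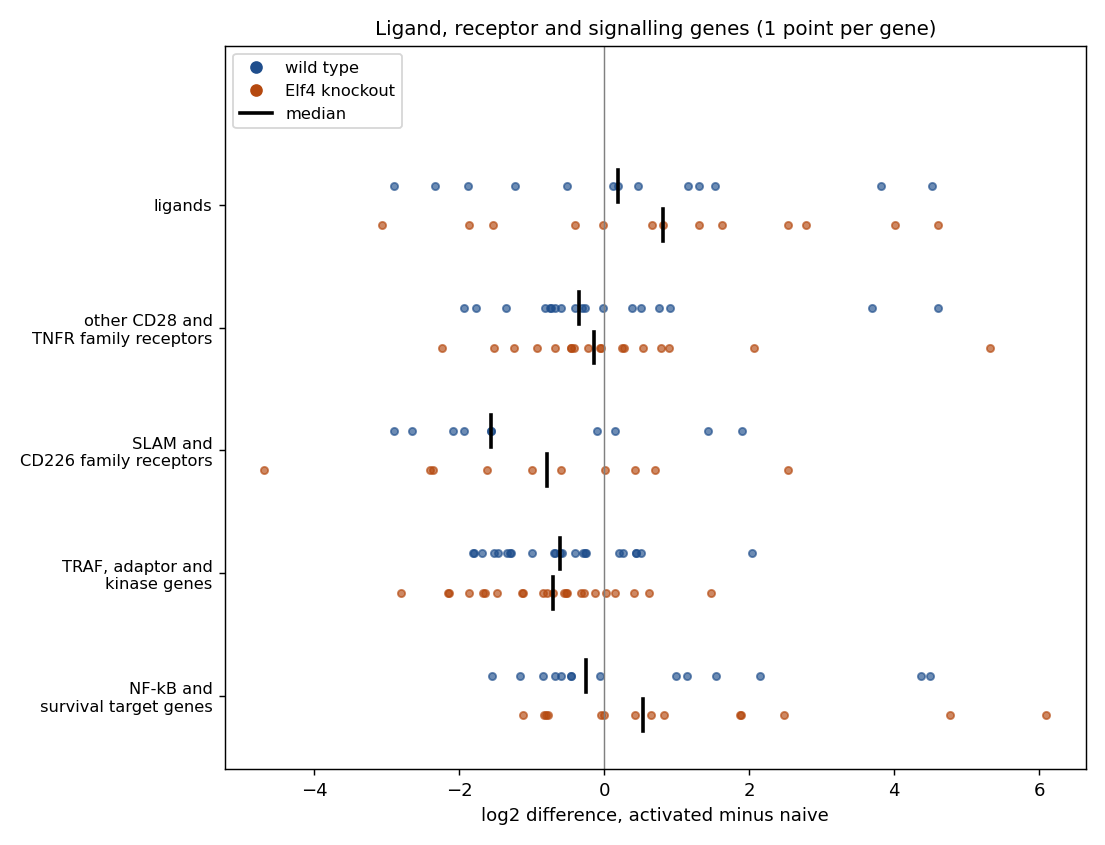
Difference in log2(intensity + 16) between activated and naive cells (x axis) for the tested genes of 5 related lists (1 point per gene), in wild-type (blue) and Elf4 knockout (orange) cells. Black lines mark the medians, which run from -1.56 for the SLAM and CD226 family receptors in wild-type cells to 0.81 for the ligands in knockout cells.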

How the data were processed

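RNA of spleen CD8+ T cells was measured on 8 Affymetrix arrays (RNeasy extraction and one-cycle labelling, per the labels' protocols). The authors deposited linear intensities, made with MAS5 per the submitters' processing notes, its version not given in the sources used here. Every array had a trimmed mean (2% cut from each end) of 500, with medians from 64.1 to 86.2. Of 45101 probe sets (64 controls), 34958 had 1 gene symbol, 932 several and 9211 none, and 34754 symbols were matched by Entrez identifier to GRCm38.p6. Groups and replicate numbers came from the sample titles. Both wild-type naive arrays carry the same array-file label, but their values differ (r 0.94, 0 identical).

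Probe sets that reached the median of the array in 2 or more of the 8 arrays (27348) were analysed as log2(intensity + 16) in limma 3.58.1 (R 4.3.3), with 4 group means, a trended prior (residual degrees of freedom 4, prior 6.67), two-sided tests and Benjamini-Hochberg adjustment over all 27348 within each of 5 comparisons. The number of arrays, 2 a group, limits the precision. The steps were tested on simulated data for knockout against wild-type activated cells. Of 100 changes of log2 1 put in, 20 were recovered, and of 100 changes of log2 3, 72 were. A genotype difference of about 1 that was not called is therefore not shown to be absent.

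The receptors and lists were chosen with earlier results of these data known. All receptor probe sets are described, up to 4 called genes with the largest difference per list and comparison are named, and the 2 genes most alike to each receptor. The alternatives changed the offset, filter, scaling, prior variance, probe sets, samples, weights, threshold and covariates and left out each array. Replicate numbers were not taken as pairs: deviations of same-numbered arrays correlated at -0.167 to 0.069. Gene order and promoter windows came from RefSeq tables of GRCm38.p6, and no genome sequence was read beyond those windows.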

Additional observations from a re-analysis of the deposited data

Results flagged for a closer look

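In 3 of the 16 receptor probe sets the genotypes' arrays did not overlap in naive or in activated cells. The arrays of the genotypes lay in opposite order in those states. Among all probe sets tested, 7.92% had this pattern. The genotypes' arrays did not overlap in 38.2% of all probe sets tested in naive cells and in 47.0% in activated cells. The knockout change on activation minus the wild-type one was -0.91 for Cd28 1437025_at, which was higher in naive and lower in activated knockout cells. It was 0.94 for Tnfrsf18 1422303_a_at and 1.31 for Cd226 1445388_at, both lower in naive and higher in activated knockout cells. None passed the test of the difference (adjusted p 0.251, 0.132 and 0.427 by limma).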

How the results depend on the processing

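Of 1665 receptor values recomputed under the alternatives, 1577 kept their call, 17 calls were lost, 11 were gained, 60 uncalled values moved by over 1 standard error and 0 called values reversed. The count of receptor probe sets called between genotypes in naive cells was 0, and 0 to 1 with each array left out. In activated cells it was 0, but 3 with only the 4 activated arrays, 2 with array weights and 0 to 1 with each array left out. On activation it was 10 in each genotype, but 5 in wild-type and 0 in knockout cells with the Actb ratio as a covariate, and 8 and 9 with an added fold threshold. It was 11 in wild-type cells with median centring, the stricter filter or either knockout naive array left out, and 9 in knockout cells without a trend or without knockout activated replicate 1. With the replicate number as a block (replicate block) the counts were 0, 0, 10, 10 and 0 (the last for the difference in response), and 108, 26, 10305, 11014 and 14 over all probe sets, and the block changed no receptor call. Crossed numbers for the naive knockout arrays, added after seeing the data because the naive deviations correlated at -0.167, gave 0 receptor calls and 167 over all. Calls over all probe sets ran from 3 (no trend) to 235 (without knockout naive replicate 1) around 154 in naive cells, where leaving out knockout naive replicate 2 left 28 and leaving out any activated array left 27 to 35. They ran from 6 (Actb ratio) to 734 (4 arrays alone) around 59 in activated cells, where leaving out an activated array left 8 to 19, and from 0 to 84 around 16 for the difference in response, the most without wild-type naive replicate 2. On activation they ran from 484 to 11039 around 10714 in wild-type and from 0 to 12184 around 11395 in knockout cells, each lowest with the Actb ratio. The causes were not tested. Tnfrsf8 and the dimmest Tnfrsf9 and Tnfrsf1b probe sets lay near the array medians, and Cd226 lay not far above them, which limits what they can show.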
